A study of Mus musculus with 5 samples.

Results

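Macrophages and mast cells are the resident immune cells of the newborn nerve, and the genes described here are those by which they are usually recognised. A probe set, the group of probes that reads a gene on the array, was included when its single gene symbol began with Mcpt and a digit or was among 32 fixed names of macrophage and mast cell genes. This gave 21 probe sets of the 10361 in the values table, each for a different gene, with 10 for macrophages and 11 for mast cells. The macrophage genes thus cover 10 of 24 names. The other 14, Csf1r, Aif1, Cd14, C1qa, C1qb, C1qc, Ptprc, Mrc1, Tyrobp, Ctss, Cd163, Pf4, Trem2 and Folr2, were not analysed here. Among mast cell genes, all 8 fixed names and 3 Mcpt genes were measured.

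The RNA was taken from sciatic nerves of newborn mice on postnatal day 2. The groups were 2 pools of Ebf2-/- nerves (KO pools 2 and 4) and 3 pools of Ebf2+/+ wild-type nerves (WT pools 1, 9 and 11), with 12 nerves in each pool and a C57Bl6N background throughout. Pups of both genotypes came from crosses between heterozygous parents, and neither the number of animals or litters in a pool nor the part of Ebf2 that is lost is given in the sources used here. Each pool was hybridised to 1 Affymetrix array, and the deposited values are log2 expression values made by RMA. A level below is such a log2 value, a log2 fold change is the KO mean minus the WT mean with its standard error (SE) from limma, and a call means a Benjamini-Hochberg adjusted p below 0.05 over all 10361 probe sets.

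Macrophages enter the nerve during development from blood-borne and embryonic precursors. They clear debris, present antigen and depend on ligands of the receptor encoded by Csf1r. Mast cells lie in the connective tissue sheaths, depend on the receptor Kit and its ligand Kitl, and store proteases, histamine and heparin in granules that are released when antigen cross-links the high-affinity IgE receptor. Markers of neither cell type are fully private to it: Kit is also made by melanocytes, Gata2, Stab1 and Lyve1 by endothelial cells of some vessels, and Fcer1g by both myeloid cells and mast cells.

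None of the 21 genes was called between the genotypes (0 of 21, with adjusted p from 0.166 to 0.765), while 0.676% of all probe sets were called. At unadjusted p below 0.05, Cpa3 was higher in KO, against 7.14% of all probe sets, and Clec10a was lower, against 7.17%. The mast cell genes lay to the KO side, with 10 of 11 higher and a median log2 fold change of 0.18. Of these 11, Gata2 and Tpsb2 are in the table only through their high KO pools, as described below. Genes of other cells of the nerve lay the same way and further: 12 of 12 endothelial genes were higher (median 0.43, with 8 at unadjusted p below 0.05) and 9 of 9 fibroblast genes (median 0.28, with 2), and 0 of either were called by limma. Their part in the mast cell values was not tested. The macrophage genes were evenly split, with 5 higher, 5 lower and a median of -0.03. Over all probe sets 49.8% were higher and the median was -0.002. The SE of the 21 differences was 0.17 to 0.20 on the log2 scale, and the median width of their 95% intervals was 0.71. In pooled tissue, fewer cells of a type and less RNA per cell cannot be told apart.

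Ebf2 itself stood at 9.25 and 8.74 in KO pools 2 and 4, against 11.55, 11.13 and 11.40 in WT pools 1, 9 and 11, so every pool lay on the side of its label. The array medians were 9.11 and 8.93 in the KO pools and 9.11, 9.09 and 9.04 in the WT pools. Skin and muscle genes were uneven among the WT pools. The 16 measured keratinocyte genes averaged 7.42 and 7.69 in the KO pools, against 7.36, 9.10 and 8.52 in WT pools 1, 9 and 11. The 21 skeletal muscle genes averaged 9.74 and 9.90 in the KO pools, against 9.23, 10.64 and 10.48 in the WT pools. As a check of the tissue, 10 measured Schwann cell genes averaged 10.77 and 10.43 in the KO pools and 11.00, 11.23 and 11.06 in the WT pools. Of these 10, 8 were lower in KO, with a median log2 fold change of -0.51 over the list, and 4 were called lower by limma, against 0.328% of all probe sets. The called genes were the myelination factor Egr2 (log2 fold change -1.13, adjusted p = 0.0181), Gldn (-1.02, adjusted p = 0.0213), the myelin glycoprotein gene Mag (-0.99, adjusted p = 0.0166) and Ncmap (-0.86, adjusted p = 0.0356). None of the 4 was called after median centring, after quantile normalisation, without moderation, against WT pool 1 alone or without WT pool 1, WT pool 9, KO pool 2 or KO pool 4, each left out in turn, and Ncmap was not called without WT pool 11. Egr2 was also not called by limma with robust moderation (adjusted p = 0.0661). Without KO pool 4 the log2 fold change of Egr2 was -0.65.

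The start regions of 3 genes are shown, Cpa3 and Kit with a higher and Cx3cr1 with a lower KO mean. The Cx3cr1 log2 fold change was -0.04 without KO pool 4. These start regions are those of the genes with the widest genotype differences that had a RefSeq entry and a match to a motif described below. RefSeq (GRCm38.p6) gives them at chr3:20242132-20242431 (minus strand), chr5:75574737-75575036 (plus strand) and chr9:120068247-120068546 (minus strand), from 250 bases before to 50 bases after the gene's start. The first of the starts listed for Kit was used. Capitals mark matches on either strand to the GATA motif (AGATAA, where the first base may also be T and the last also G), the site read by GATA factors such as GATA2, or to the core GAGGAA of sites of PU.1, the factor of myeloid development. No match overlapped one of the other motif.
Cpa3: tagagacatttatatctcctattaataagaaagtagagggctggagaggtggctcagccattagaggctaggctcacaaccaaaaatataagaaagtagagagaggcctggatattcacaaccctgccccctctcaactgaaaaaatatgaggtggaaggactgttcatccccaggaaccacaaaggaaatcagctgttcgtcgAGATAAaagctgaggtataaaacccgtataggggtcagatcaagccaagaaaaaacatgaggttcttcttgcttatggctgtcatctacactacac
Kit: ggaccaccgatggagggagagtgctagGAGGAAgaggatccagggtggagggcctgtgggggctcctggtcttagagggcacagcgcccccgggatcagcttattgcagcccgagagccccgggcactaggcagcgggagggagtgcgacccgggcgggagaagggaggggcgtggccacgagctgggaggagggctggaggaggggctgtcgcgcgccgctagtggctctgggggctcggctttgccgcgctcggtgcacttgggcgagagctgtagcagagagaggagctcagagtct
Cx3cr1: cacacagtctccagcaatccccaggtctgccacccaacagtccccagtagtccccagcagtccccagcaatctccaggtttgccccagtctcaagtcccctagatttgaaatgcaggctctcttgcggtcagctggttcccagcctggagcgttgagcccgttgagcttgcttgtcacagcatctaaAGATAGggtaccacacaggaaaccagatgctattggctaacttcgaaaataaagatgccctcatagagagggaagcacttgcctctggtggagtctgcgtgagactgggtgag

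Cpa3 and Cx3cr1 each held 1 GATA match and Kit held 1 GAGGAA match, and a match was required for a region to be shown. The start region of Gata2, next in width of difference among genes with an entry, held 0 matches and is not shown. Start regions were found in RefSeq for 16 of the 21 genes. A GATA match was present in 6 of 9 mast cell genes (Fcer1a, Hdc, Cpa3, Cma1, Mcpt4 and Ms4a2) and in 2 of 7 macrophage genes (Cx3cr1 and Timd4), against 30.2% of all 27025 genes with a start region. GAGGAA was present in 3 of 9 mast cell genes (Fcer1a, Kit and Mcpt8) and in 3 of 7 macrophage genes (Fcgr1, Cd68 and Stab1), against 28.3% of all. Such matches are letters in a window and say nothing about binding.

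**Figure D1:**
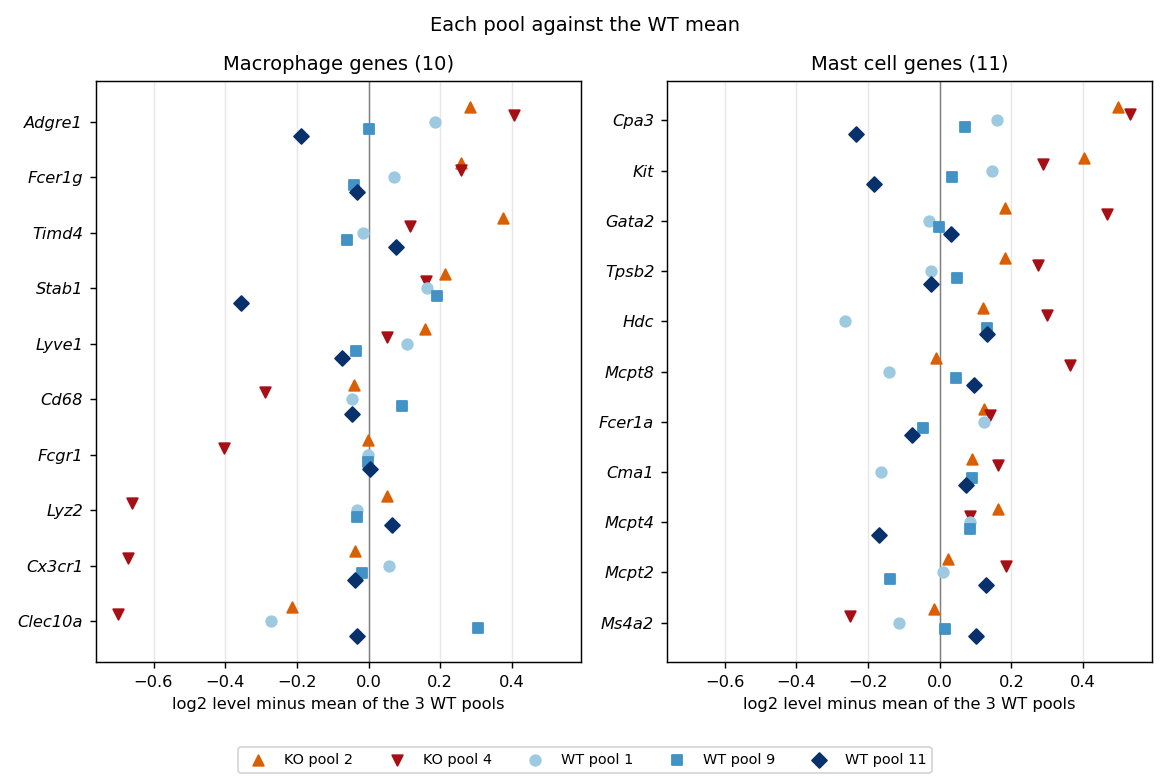
Log2 level of each gene in each pool minus the mean of the 3 WT pools (x axis), for 10 macrophage genes (left) and 11 mast cell genes (right). Triangles are the 2 KO pools and the other symbols the 3 WT pools, offset vertically for legibility. KO pool 4 was the lowest pool of 5 macrophage genes, against 31.8% of all probe sets, with KO pool 2 among or near the WT pools. Of these 5, 4 are in the table through that low value alone. Both KO pools lay above all WT pools for 3 macrophage genes (Adgre1, Fcer1g and Timd4), against 17.5% of all probe sets. The same held for 4 mast cell genes (Cpa3, Kit, Gata2 and Tpsb2). Of the genes with both KO pools above, Fcer1g, Timd4, Gata2 and Tpsb2 are in the table only through their high KO pools.

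Cpa3, which encodes the granule carboxypeptidase A3 of mast cells, had the widest difference of the 21 genes. Its level was 12.58 and 12.62 in KO pools 2 and 4, against 12.25, 12.16 and 11.85 in WT pools 1, 9 and 11. The KO pools lay close together above all WT pools, and WT pool 11 was the lowest. The difference was 1.43-fold (log2 fold change 0.52, SE 0.17, 95% interval 0.15 to 0.88), and it was not called by limma (adjusted p = 0.166, from 0.0590 to 0.857 in 12 alternative analyses).

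Tpsb2, the tryptase mMCP-6 that is stored bound to heparin, was the other protease whose groups did not overlap. It read 10.65 and 10.74 in the KO pools, against 10.44, 10.51 and 10.44 in WT pools 1, 9 and 11. The 3 WT pools differed by 0.074 and the KO pools stood above them by a small step, with a log2 fold change of 0.23 (SE 0.17, limma adjusted p = 0.546).

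The remaining 4 proteases, all encoded on chromosome 14, showed overlapping groups. Mcpt4, the connective tissue chymase mMCP-4, read 10.25 and 10.17 in the KO pools, against 10.17, 10.17 and 9.92 in WT pools 1, 9 and 11. WT pool 11 was the low pool here, and WT pools 1 and 9 had the same value as KO pool 4 (log2 fold change 0.12, SE 0.17, and 0.04 without WT pool 11). Cma1, the chymase mMCP-5, read 8.77 and 8.84 in the KO pools, against 8.51, 8.77 and 8.75 in the WT pools. Only WT pool 1 stood apart, below the rest (log2 fold change 0.13, SE 0.17, and 0.04 without WT pool 1). Mcpt8, a serine protease known from basophils, read 6.20 and 6.58 in the KO pools, against 6.07, 6.26 and 6.31 in the WT pools. KO pool 4 was the high one, KO pool 2 lay among the WT pools, and the log2 fold change of 0.18 (SE 0.18) was -0.01 without KO pool 4. Mcpt2, a chymase of mucosal mast cells, read 4.76 and 4.92 in the KO pools, against 4.74, 4.60 and 4.86 in the WT pools. This probe set was near the lower end of the table, which ran from 2.84 to 14.3, and its groups overlapped (log2 fold change 0.10, SE 0.17, and 0.02 without KO pool 4). The chymases are related in sequence, and whether their probes read one another was not tested.

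Kit, the receptor tyrosine kinase on which mast cells depend, was higher in both KO pools. It read 10.02 and 9.90 in KO pools 2 and 4, against 9.76, 9.65 and 9.43 in WT pools 1, 9 and 11. The log2 fold change was 0.35 (SE 0.17, 95% interval -0.01 to 0.70, limma adjusted p = 0.366), and 0.20 against WT pool 1 alone. Melanocytes also make Kit, and of 10 melanocyte genes 8 were measured, with means of 6.95 and 6.95 in the KO pools and from 6.84 (WT pool 1) to 7.20 (WT pool 9) in the WT pools. Their part in the Kit values was not tested.

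Gata2, a transcription factor of mast cell precursors and of endothelium, read 8.90 and 9.19 in the KO pools, against 8.69, 8.72 and 8.75 in WT pools 1, 9 and 11. The WT pools were within 0.060 of each other, both KO pools lay above them, and KO pool 4 was the higher. The log2 fold change was 0.32 (SE 0.17, 95% interval -0.03 to 0.68, limma adjusted p = 0.393), and 0.18 without KO pool 4. The 12 endothelial genes had means of 10.77 and 10.55 in the KO pools and 10.55, 10.16 and 10.10 in the WT pools, with WT pool 1 level with KO pool 4. The part of endothelium in the Gata2 values was not tested.

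Hdc, the enzyme that makes histamine, read 9.97 and 10.15 in the KO pools, against 9.59, 9.99 and 9.98 in the WT pools. KO pool 2 was level with WT pools 9 and 11, and WT pool 1 was the lowest (log2 fold change 0.21, SE 0.18). The value was 0.08 without WT pool 1 and 0.12 without KO pool 4. The IgE receptor is built from Fcer1a, which binds IgE, the signal-amplifying chain Ms4a2 and the signalling chain Fcer1g. Fcer1a read 6.58 and 6.60 in the KO pools, against 6.58, 6.41 and 6.38 in the WT pools, so WT pool 1 equalled KO pool 2. Ms4a2 was the mast cell gene that ran the other way, at 5.50 and 5.26 in the KO pools and 5.40, 5.53 and 5.61 in the WT pools. Fcer1g, counted here among the macrophage genes, read 10.34 and 10.34 in the KO pools, against 10.15, 10.04 and 10.05 in the WT pools. Of these 3 chains, Fcer1g alone had groups that did not overlap. Their log2 fold changes were 0.13 (SE 0.17) for Fcer1a, -0.13 (SE 0.17, and -0.02 without KO pool 4) for Ms4a2 and 0.26 (SE 0.17) for Fcer1g, and none was called by limma.

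Among the 11 mast cell genes, 4 had both KO pools above all WT pools (Cpa3, Kit, Gata2 and Tpsb2), against 17.5% of all probe sets, and 0 had both below, against 13.3%. In every probe set of the table the fourth value in rising order exceeds the lowest by at least 0.175. The WT pools of Gata2 and Tpsb2 differed by only 0.060 and 0.074. Both genes are thus in the table only through their high KO pools, and this count supports no statement about mast cell genes at large. KO pool 4 was the single highest pool in 8 of the 11, against 29.1% of all probe sets, although its array median was the lowest of the series. Averaged over the 11 mast cell genes, the level was 8.56 and 8.63 in KO pools 2 and 4, against 8.38, 8.43 and 8.39 in WT pools 1, 9 and 11. The median log2 fold change was 0.15 for the 6 proteases and 0.21 for the 5 receptor, enzyme and factor genes. The median of all 11 was 0.12 without KO pool 4, 0.25 against WT pool 1 alone and 0.24 after each array was centred on its median.

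**Figure D2:**
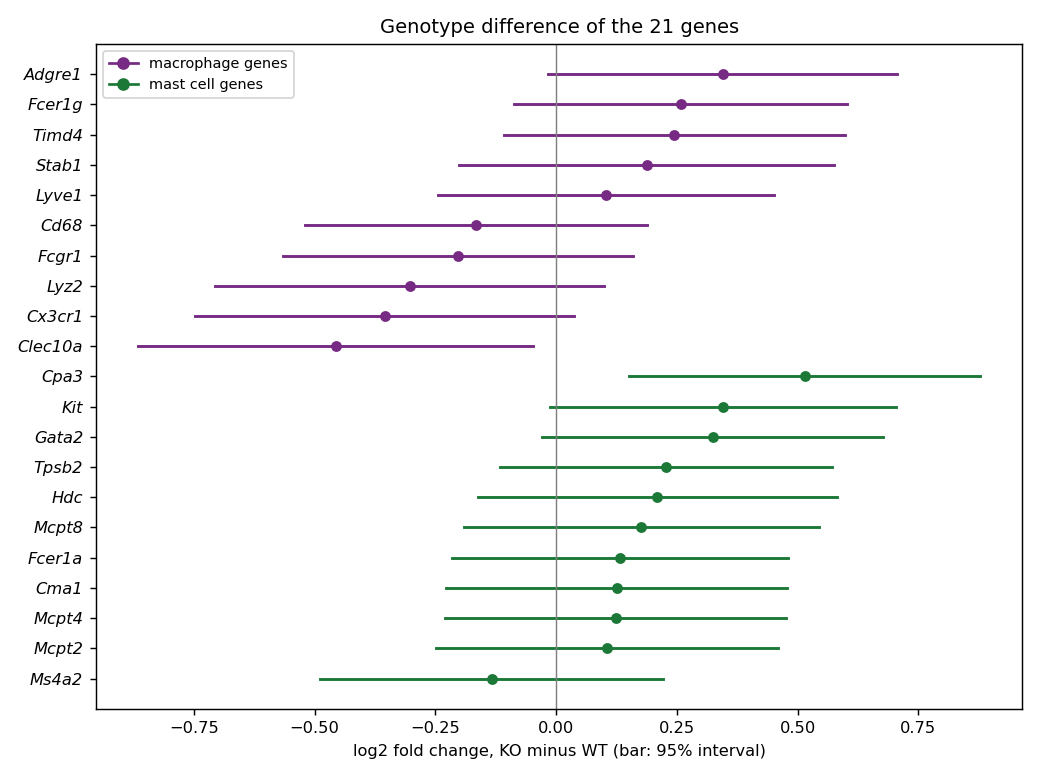
Log2 fold change of each of the 21 genes, KO minus WT (x axis, points), with the 95% interval of the limma fit (bars), macrophage genes above and mast cell genes below. The intervals of Cpa3 (0.15 to 0.88) and Clec10a (-0.87 to -0.05) exclude 0 before adjustment, and none of the 21 genes was called after adjustment.

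Cx3cr1, the receptor for the chemokine fractalkine on resident macrophages, opened the group of macrophage genes that were low in KO pool 4. It read 9.22 and 8.59 in KO pools 2 and 4, against 9.32, 9.24 and 9.22 in WT pools 1, 9 and 11. KO pool 2 equalled WT pool 11, and the 4 pools other than KO pool 4 lay within 0.095. The log2 fold change was -0.36 (SE 0.19, limma adjusted p = 0.398), and -0.04 without KO pool 4.

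Lyz2, the lysozyme of macrophages and granulocytes, read 10.82 and 10.11 in the KO pools, against 10.74, 10.74 and 10.84 in the WT pools. Again KO pool 2 lay among the WT pools and KO pool 4 well below, so that the log2 fold change of -0.30 (SE 0.19, limma adjusted p = 0.488) turned to 0.05 without KO pool 4. Fcgr1, the high-affinity IgG receptor, read 8.03 and 7.63 in the KO pools, against 8.03, 8.03 and 8.03 in the WT pools. Its 4 pools other than KO pool 4 agreed within 0.005, and its log2 fold change was -0.20 (SE 0.17), and -0.002 without KO pool 4. Cd68, a lysosomal membrane protein of phagocytes, read 9.21 and 8.96 in the KO pools, against 9.20, 9.34 and 9.20 in the WT pools. Its difference was the smallest of the 5 genes lowest in KO pool 4 (log2 fold change -0.17, SE 0.17), and it was -0.04 without KO pool 4.

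Clec10a, a C-type lectin of macrophages and dendritic cells in connective tissue and skin, was lowest in KO pool 4 as well but also differed among the WT pools. It read 7.75 and 7.27 in the KO pools, against 7.69, 8.27 and 7.94 in WT pools 1, 9 and 11. KO pool 2 lay between WT pool 1 and WT pool 11. The log2 fold change was -0.46 (SE 0.20, 95% interval -0.87 to -0.05, limma adjusted p = 0.289). It was -0.21 without KO pool 4 and -0.18 against WT pool 1 alone. The unadjusted p was 0.0307 by limma and 0.204 by the same fit without moderation. WT pools 9 and 11, the higher ones, were those with the high keratinocyte and muscle means given above, and the part of skin in the Clec10a values was not tested.

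The other 5 macrophage genes were not low in KO pool 4. Adgre1, the macrophage surface protein F4/80, read 9.06 and 9.18 in the KO pools, against 8.96, 8.78 and 8.59 in WT pools 1, 9 and 11. Both KO pools lay above all WT pools, which were spread over 0.374. The log2 fold change was 0.35 (SE 0.17, 95% interval -0.02 to 0.71, limma adjusted p = 0.373), and 0.16 against WT pool 1 alone. Timd4, a phosphatidylserine receptor of long-lived resident macrophages, read 7.38 and 7.13 in the KO pools, against 6.99, 6.95 and 7.09 in the WT pools. KO pool 4 cleared the highest WT pool only narrowly (log2 fold change 0.25, SE 0.17, and 0.12 without KO pool 2).

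Stab1 and Lyve1, the scavenger receptor stabilin-1 and a hyaluronan receptor, are shared by perivascular macrophages and vessels. Stab1 read 10.51 and 10.46 in the KO pools, against 10.46, 10.48 and 9.94 in the WT pools. WT pool 11 alone was low, and the log2 fold change of 0.19 (SE 0.19) was 0.01 without it. Lyve1 read 11.54 and 11.43 in the KO pools, against 11.49, 11.35 and 11.31 in the WT pools, with overlapping groups and a log2 fold change of 0.10 (SE 0.17) that was -0.004 against WT pool 1 alone.

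Counted together, 3 of the 10 macrophage genes (Adgre1, Fcer1g and Timd4) had both KO pools above all WT pools, against 17.5% of all probe sets, and 0 had both below, against 13.3%. KO pool 4 was the single lowest pool in 5 of the 10, against 31.8% of all probe sets, and it lay below KO pool 2 in 8 of the 10, against 48.1%. It also lay below KO pool 2 in 9 of 10 Schwann cell genes and 11 of 12 endothelial genes. The same held in 4 of 9 fibroblast, 3 of 21 skeletal muscle and 1 of 16 keratinocyte genes. The table holds no probe set whose lowest value lies closer than 0.175 to the fourth in rising order, and for 4 of the 5 (Cx3cr1, Lyz2, Fcgr1 and Cd68) the other 4 pools lay within less than that. These 4 are thus in the table through their low value in KO pool 4 alone, as are 12.2% of all probe sets. The WT pools of Fcer1g and Timd4 lay within 0.112 and 0.136, so both genes are in the table only through their high KO pools. The counts, means and medians given here thus describe the genes in the table and support no statement about macrophage genes at large. This holds for KO pool 4 and for the count with both KO pools above. In the 5 genes that were lowest in KO pool 4, this pool lay 0.29 to 0.70 below the WT mean, while KO pool 2 was between -0.21 and 0.05 from it. The 10 genes averaged 9.39 and 9.11 in KO pools 2 and 4, against 9.30, 9.32 and 9.22 in WT pools 1, 9 and 11, so the KO pools stood on opposite sides of the WT pools. The median difference of KO pool 4 from KO pool 2 was -0.25 over these genes, -0.07 after median centring and -0.20 after quantile normalisation. For the 11 mast cell genes the same median was 0.07, and it was 0.26 and 0.06 after these scalings, against 0.00, 0.18 and 0.04 over all probe sets.

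Further genes of the same cells were read from lists. Of 40 other macrophage genes 30 were measured, 0 were called by limma, 3 were higher and 0 lower at unadjusted p below 0.05, in all 16 were higher and 14 lower, and the median log2 fold change was 0.06. The KO pools again lay apart: KO pool 4 was the single lowest pool in 17 of the 30, KO pool 2 was the single highest in 17, against 17.1% of all probe sets, and KO pool 4 lay below KO pool 2 in 26. Of these 17 lowest in KO pool 4, 4 were in the table through that low value alone, as were 2 of the 6 leukocyte genes described next. Their mean was 8.95 and 8.59 in KO pools 2 and 4, against 8.82, 8.75 and 8.68 in the WT pools. The widest differences were those of Tlr4, a receptor for bacterial lipopolysaccharide (log2 fold change 0.55, SE 0.20), Cybb, the catalytic subunit of the phagocyte oxidase (0.39, SE 0.18), Hpgds, a prostaglandin D synthase (-0.38, SE 0.20), and Tmem119 (0.36, SE 0.17). Of 20 genes shared by leukocytes 6 were measured, 0 were called or passed at unadjusted p below 0.05, and all 6 were lower in KO pool 4 than in KO pool 2, with means of 8.45 and 8.13 in the KO pools and 8.36, 8.36 and 8.23 in the WT pools.

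Other mast cell genes did not share the lean of the 11. Of 22 listed, 11 were measured and 0 were called by limma, with 2 higher and 1 lower at unadjusted p below 0.05. In all 4 were higher and 7 lower, and the median log2 fold change was -0.13. Their mean was 8.44 and 8.18 in the KO pools, against 8.38, 8.43 and 8.24 in WT pools 1, 9 and 11, so the groups overlapped. Srgn, the proteoglycan core on which granule proteases are stored and which endothelium and leukocytes also make, read 12.15 and 12.28 in the KO pools, against 11.94, 11.74 and 11.73 in the WT pools (log2 fold change 0.41, SE 0.17, limma adjusted p = 0.259). Hs3st1, a sulfotransferase that modifies heparan sulfate chains, read 8.70 and 8.70 in the KO pools, against 8.42, 8.16 and 7.96 in the WT pools (log2 fold change 0.52, SE 0.18, limma adjusted p = 0.171). Both had groups that did not overlap, with the KO pools on the high side. These were 2 of the 11 measured, against 17.5% of all probe sets. Mrgprb1, a receptor of the Mas-related family, ran lower, at 7.47 and 6.96 in the KO pools and 7.71, 7.72 and 7.45 in the WT pools (log2 fold change -0.41, SE 0.19, limma adjusted p = 0.316). Cyp11a1, the side-chain cleavage enzyme of steroid synthesis, had a log2 fold change of -0.27 (SE 0.18).

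**Figure D3:**
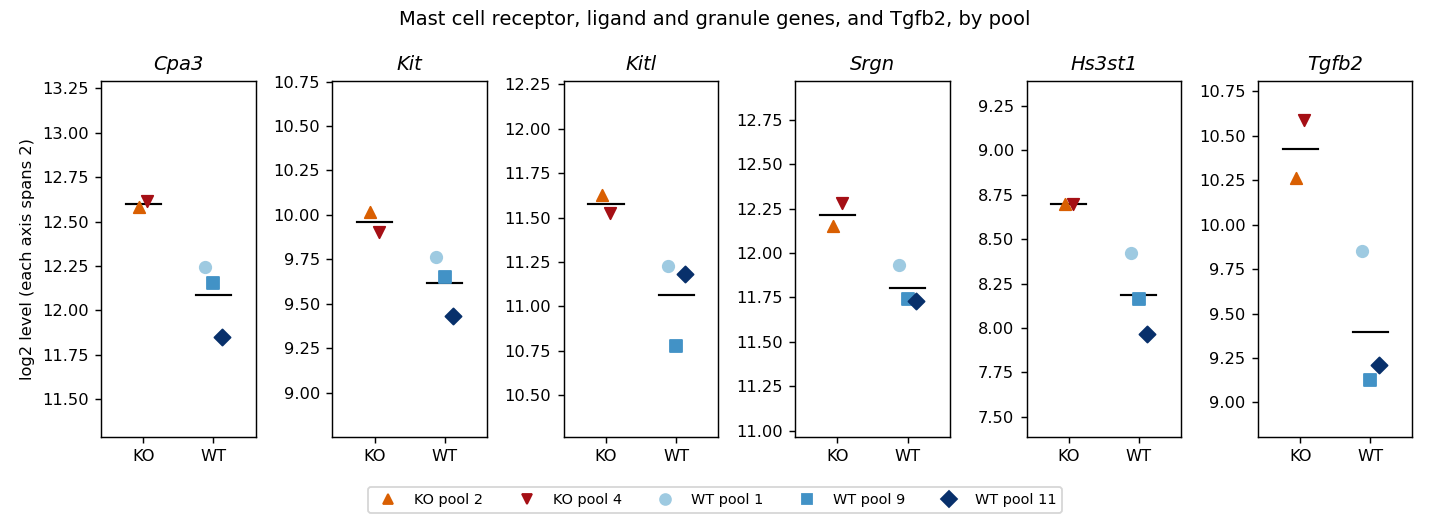
Log2 level by pool of Cpa3, Kit, the Kit ligand gene Kitl, Srgn, Hs3st1 and Tgfb2, with KO pools left and WT pools right in each panel and a bar at the group mean; each axis spans 2 log2 units. Both KO pools lay above all 3 WT pools for each of the 6 genes, which were picked for display, and of these Tgfb2 alone was called. Over all probe sets 17.5% had both KO pools above. Of the 11 other mast cell genes measured, among them Srgn and Hs3st1, 4 were higher and 7 lower in KO.

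Among ligands that recruit or sustain these cells, 12 of 19 were measured and 1 was called, Tgfb2, against 0.347% of all probe sets called higher. Tgfb2, a transforming growth factor that acts on macrophages and on many other cells, read 10.26 and 10.59 in KO pools 2 and 4, against 9.85, 9.13 and 9.21 in WT pools 1, 9 and 11. It rose 2.04-fold (log2 fold change 1.03, SE 0.21, limma adjusted p = 0.0213). Without WT pool 1 the adjusted p was 0.0692, without WT pool 9 it was 0.831, without KO pool 2 it was 0.187 and without KO pool 4 it was 0.782. Tgfb2 had a log2 fold change of 0.57 against WT pool 1 alone (adjusted p = 0.857), and it was not called after median centring (adjusted p = 0.364), after quantile normalisation (0.355) or without moderation (0.560).

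Kitl, the ligand of Kit, read 11.63 and 11.53 in the KO pools, against 11.23, 10.78 and 11.18 in the WT pools. Both KO pools lay above all WT pools and WT pool 9 was the lowest (log2 fold change 0.52, SE 0.18, limma adjusted p = 0.178). Il33, an alarmin that activates mast cells, read 10.68 and 10.07 in the KO pools, against 10.47, 9.54 and 9.50 in the WT pools, with WT pool 1 between the KO pools (log2 fold change 0.54, SE 0.24). Ccl6, a chemokine made by macrophages, read 8.63 and 7.91 in the KO pools, against 8.68, 9.00 and 8.78 in the WT pools. It was lowest in KO pool 4, like Lyz2 and Cx3cr1, and KO pool 2 lay just under WT pool 1 (log2 fold change -0.55, SE 0.20, limma adjusted p = 0.199).

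Of 17 myeloid transcription factors 9 were measured and 0 were called by limma, with 2 higher and 1 lower at unadjusted p below 0.05. Maf, a factor of resident macrophages that other nerve cells also make, read 11.04 and 10.32 in the KO pools, against 11.17, 11.34 and 11.24 in the WT pools (log2 fold change -0.57, SE 0.19, limma adjusted p = 0.172). Its KO pools both lay below the WT pools, with KO pool 4 far below KO pool 2. Bhlhe41 (0.54, SE 0.21), Klf4 (0.46, SE 0.18) and Id2 (-0.22, SE 0.17) had the next widest log2 fold changes, and all 3 are made by many cell types. Of 14 genes of antigen presentation and dendritic cells 4 were measured and 0 were called or passed at unadjusted p below 0.05, with H2-Ab1, a chain of the class II complex, at 0.19 (SE 0.17), Xcr1 at 0.13 (SE 0.17), the Langerhans cell lectin Cd207 at 0.13 (SE 0.17) and Zbtb46 at 0.09 (SE 0.17).

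Markers of other blood cells gave no call either. Of 18 monocyte and neutrophil genes 9 were measured and 0 were called by limma or passed at unadjusted p below 0.05. Their mean was 7.27 and 7.17 in the KO pools, against 6.92, 7.20 and 7.14 in WT pools 1, 9 and 11. In all 8 of the 9 were higher in KO, with a median log2 fold change of 0.13. The widest of these were the granule genes Ngp (0.33, SE 0.17) and Ctsg (0.32, SE 0.17) and Retnlg (0.30, SE 0.18), and Mmp8, the neutrophil collagenase, was the 1 gene lower (-0.37, SE 0.22). Of 19 lymphocyte genes 4 were measured, Cd3e, Il7r, Prf1 and Cd8a, with 0 called, 0 past unadjusted p below 0.05 and log2 fold changes from -0.08 to 0.17. All 7 measured genes of red cells and their precursors were lower in KO and 0 were called (1 at unadjusted p below 0.05), with a median of -0.23 and means of 8.23 and 8.32 in the KO pools against 8.22, 8.83 and 8.61 in the WT pools. WT pool 1 was thus level with the KO pools, as it was for the keratinocyte genes. The widest of the 7 was Tfrc, the transferrin receptor (log2 fold change -0.63, SE 0.20, limma adjusted p = 0.136).

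**Figure D4:**
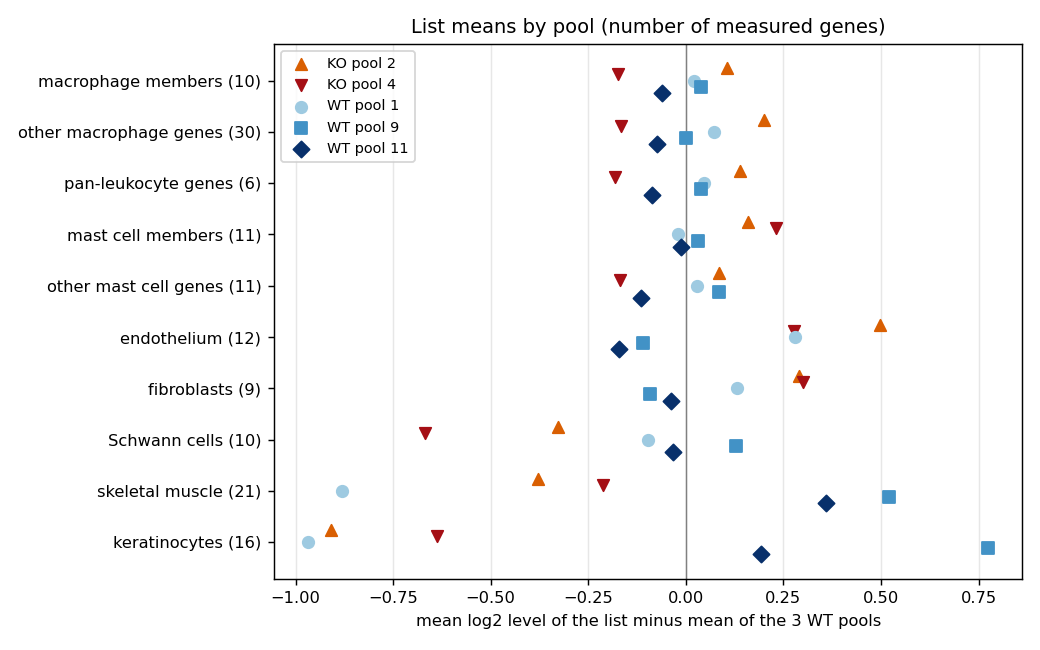
Mean log2 level of each gene list in each pool minus the mean of its 3 WT pools (x axis); the number of measured genes is in brackets, triangles are the KO pools and the other symbols the WT pools, offset vertically. The macrophage and leukocyte lists had KO pool 2 as their highest and KO pool 4 as their lowest pool. Each of these lists holds genes that are in the table through a low value in KO pool 4 alone. The other mast cell genes had the same highest and lowest pools, with KO pool 2 (8.436) just above WT pool 9 (8.434). That list holds 0 genes that are in the table through KO pool 4 alone. The mast cell members and the fibroblast list had both KO pools above all WT pools, and the muscle and keratinocyte lists were highest in WT pools 9 and 11.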

How the data were processed

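RNA of 5 nerve pools was read on Affymetrix whole-transcript arrays, with 1 array for each pool, as the labels' protocols state. The deposited values are on a log2 scale and come from RMA run by the authors, per the submitters' processing notes, with its version and settings not given in the sources. The platform annotation of 2016 named the probe sets: 9411 had 1 symbol, 384 several and 566 none listed, and 0 symbols needed an update to RefSeq. Of the probe sets with several symbols, 1 that named Mcpt9 was not used.

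All 10361 probe sets were fitted as deposited with limma 3.58.1 in R 4.3.3 (lmFit and eBayes, 3 residual and 17.4 prior degrees of freedom, two-sided), and the fit was tested on simulated data. The number of arrays limits the precision, and p-values reflect only how these pools vary, which can be technical in part. With 17.4 prior against 3 residual degrees of freedom, most of the weight in each gene's variance comes from all probe sets together. Every gene that met the rule was named; of the lists of immune genes and ligands, the called genes and up to 4 of those with the widest difference, and of the lists of other tissue cells, the called genes. The lists named here and the members were chosen with earlier results of these data known. Start regions shown are those of the genes with the widest differences for which RefSeq had an entry and a motif matched.

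The table carries no probe set in which the lowest value lies closer than 0.175 to the fourth of the 5 in rising order. Genes with little spread are thus not analysed here, and a gene that is low in a single pool passes such a bound. A gene high in both KO pools over close WT pools also passes, as Gata2, Tpsb2, Fcer1g and Timd4 did. One that is high in a single pool alone does not. At least 1 pair of pools shared a value in 7 of the 21 probe sets and in 27.0% of all.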

Additional observations from a re-analysis of the deposited data

How the results depend on the processing

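Against 70 calls, there was 1 after median centring, 1 after quantile normalisation, 287 among the probe sets with a mean above the 50th percentile, 148 with robust moderation, 268 with array weights, and 0 without moderation (498 at unadjusted p below 0.05) or against WT pool 1 alone (127). Leaving out each pool in turn gave 0 (2309 at unadjusted p below 0.05 without KO pool 2 and 327 without KO pool 4) to 105. No macrophage or mast cell gene was called by limma in any of these 12 alternatives, where the lowest adjusted p was 0.0590 (Cpa3 with array weights). Of 242 values of the 21 genes, 239 kept their direction, some of them close to 0. Leaving out a single pool moved 15 of the 21 values by over 1.5 times. Of these, 12 moved without KO pool 4 and 10 without KO pool 2, and 4, 3 and 5 without WT pools 1, 9 and 11. Those moved without KO pool 4 included Cx3cr1 (to -0.04), Fcgr1 (to -0.002) and Cd68 (to -0.04). Stab1 was 0.01 without WT pool 11. The 6 that moved less were Adgre1, Cpa3, Fcer1a, Fcer1g, Kit and Tpsb2. The 3 that changed sign were Lyz2 and Mcpt8 without KO pool 4 and Lyve1 (-0.004) against WT pool 1 alone. With each pool left out, Lyz2 ran from -0.66 to 0.052 and Mcpt8 from -0.0103 to 0.36. The mast cell median of 0.18 was 0.24 after median centring, 0.23 above the 50th percentile (5 genes) and 0.25 against WT pool 1 alone, and 0.12 to 0.27 with each pool left out. The macrophage median of -0.03 was 0.03 after median centring and -0.12 to 0.10 with each pool left out, with 0.10 reached without KO pool 4. With a pool left out, an arm of 1 pool is assumed to vary like the other. Each of the 21 genes had 1 probe set, so the choice among several was not run. No paired analysis was possible because the pools of the groups share no numbers.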
